A study of Mus musculus with 6 samples.

Results

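Of 53294 hippocampal nuclei that passed the filters, 473 (0.888%) were Lamp5+ GABAergic nuclei, a group that the rule used here was meant to fill with Lamp5 and neurogliaform interneurons. A barcode was taken when it held at least 500 unique molecular identifiers (UMIs, each counted as 1 transcript), at most 5% of them from mitochondrial genes, at least 3 UMIs of Gad1 and Gad2 together, at least 1 UMI of Lamp5, at most 1 of Vip, at most 2 of Sst, 0 of Pvalb, and at least 1 UMI of Reln, Ndnf or Adarb2. These nuclei were 15.2% of the 3102 GABAergic nuclei. The remaining 2629, with at least 3 UMIs of Gad1 and Gad2 and at most 1 of Slc17a7, served as the other GABAergic nuclei. This limit on Slc17a7 was not set for the 473, and 132 of them (27.9%) had 2 UMIs of it or more. The hippocampi came from mice aged 18 to 20 months and were frozen before the nuclei were isolated. In the sevoflurane group the mice breathed 2% of this volatile anaesthetic with 60% O2 at 1 L/min for 6 h, and in the oxygen group 60% O2 alone at the same flow for the same time. Each group had 3 libraries. The labels do not say how many animals a library holds, so the p-values measure the spread between libraries. The title of the study concerns low S-methyl-5-thioadenosine in blood and delayed cognitive recovery after surgery, and the comparison asks what the anaesthetic changed in the old hippocampus. The libraries yielded 90, 81 and 91 Lamp5+ GABAergic nuclei after sevoflurane (replicates 1, 2 and 3, 262 in all), against 83, 60 and 68 with oxygen alone (211 in all).

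Lamp5 encodes a neuronal member of the lysosome-associated membrane protein family and marks a class of interneurons whose best known members are neurogliaform and ivy cells. These small cells release GABA diffusely rather than at tight synapses, so that it reaches slow GABA-A and GABA-B receptors on many neighbouring dendrites, and they are coupled to each other by gap junctions. In the hippocampus they have separate origins. One line comes from the medial ganglionic eminence, carries the transcription factor Lhx6 and often neuronal nitric oxide synthase (Nos1), and includes the ivy cells. The other comes from the caudal ganglionic eminence and carries Ndnf, Reln and Adarb2. Reln encodes reelin, a secreted glycoprotein of the extracellular matrix.

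The 6 libraries held between 56334621 and 72636984 UMIs as deposited. The Lamp5+ GABAergic nuclei together held 7332186 of them, between 804974 and 1681177 per library. Their median UMI count was 9633.5, 10405 and 11780 in sevoflurane replicates 1, 2 and 3, against 10644, 10568.5 and 9865.5 in the oxygen libraries, but single nuclei reached 201249, and the 5 deepest nuclei of a library held 22.5% to 32.1% of its sum. Sex-linked transcripts went against the labelled sex in 3 of the 6 libraries. Sevoflurane replicate 1, labelled male, had 1370 CPM of Xist (counts scaled to one fixed library total) and 0.349 CPM of Y-linked transcripts over all nuclei. Sevoflurane replicate 3 and oxygen replicate 3, labelled female, had the male pattern, as did the remaining libraries, with 0.519 to 1.20 CPM of Xist and 341 to 374 CPM of Y-linked transcripts in all 5. Of 52967 distinct barcodes that passed, 326 occurred in more than 1 library. No barcode was a Lamp5+ GABAergic nucleus in more than 1 library, and 7 of the 473 also passed the filters in another library. The doublet score Scrublet marked 46 of the 473 (9.73%), and they were kept.

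The marker genes bore out the label in part only. The 473 nuclei were sorted by their strongest genes, after these had been seen. Sets were filled in order: Ano1/Prdm16-high, Chrm2/Ntng1-high, Glis3/Slc17a7-high and then Fgf13/Cacna2d1-high. The first took at least 5 UMIs of Ano1, Ano2 and Prdm16 together, and the second at least 40 of Chrm2 and Ntng1. The third took at least 2 UMIs of Slc17a7, 30 of Rfx3, Glis3, Maml2, Slit3 and Dgkh together, or 40 of Sv2b and Arpp21. These cuts were not scaled for depth. The deepest nucleus held 102388 UMIs in the third set and 21935 in the fourth. Of the nuclei that entered none of the sets before, 238 (50.3% of the 473) carried at least 10 UMIs of Fgf13, Cacna2d1, Sv2c and Kit together. These 4 genes were not particular to them. Their summed UMIs had a median of 49 in the 238, 30 in the Glis3/Slc17a7-high nuclei and 20 in the Chrm2/Ntng1-high nuclei. Among the sets, these Fgf13/Cacna2d1-high nuclei had the highest shares with Reln, Nos1, Kit and Lhx6. Reln was detected in 81.9% of them, Adarb2 in 77.3%, Sv2c in 64.7%, Nos1 in 57.1%, Kit in 39.9%, Lhx6 in 37.0%, Ndnf in 30.7%, Id2 in 29.8% and Npy in 28.6%. A further 124 nuclei (26.2%) were Glis3/Slc17a7-high. Slc17a7, the vesicular glutamate transporter of excitatory neurons, was detected in 96.0% of these, Reln in 41.9%, and 19.4% were marked by the doublet score. Slc17a7 is among the genes that define this set, so its share there is not independent evidence. The Ano1/Prdm16-high set held 45 nuclei (9.51%), with Lhx6 in 0 of 45, which allows a share of up to 6.67%, Slc17a7 in 60.0%, Ndnf in 46.7% and Sv2c in 68.9%. The Chrm2/Ntng1-high set held 40 nuclei (8.46%), with Adarb2 in 100%, Reln in 15.0% and Lhx6 in 0 of 40, which allows up to 7.50%. The last 26 nuclei (5.50%) met no definition. The cuts were not sharp, since 40 nuclei held 8 to 12 UMIs of the 4 genes of the Fgf13/Cacna2d1-high set and 186 held 1 or 2 UMIs of Slc17a7. Because the rule needs only 1 UMI of Lamp5, and 302 of the 473 nuclei (63.8%) had exactly that, the nuclei are called by their rule and the sets by their leading genes.

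**Figure D1:**
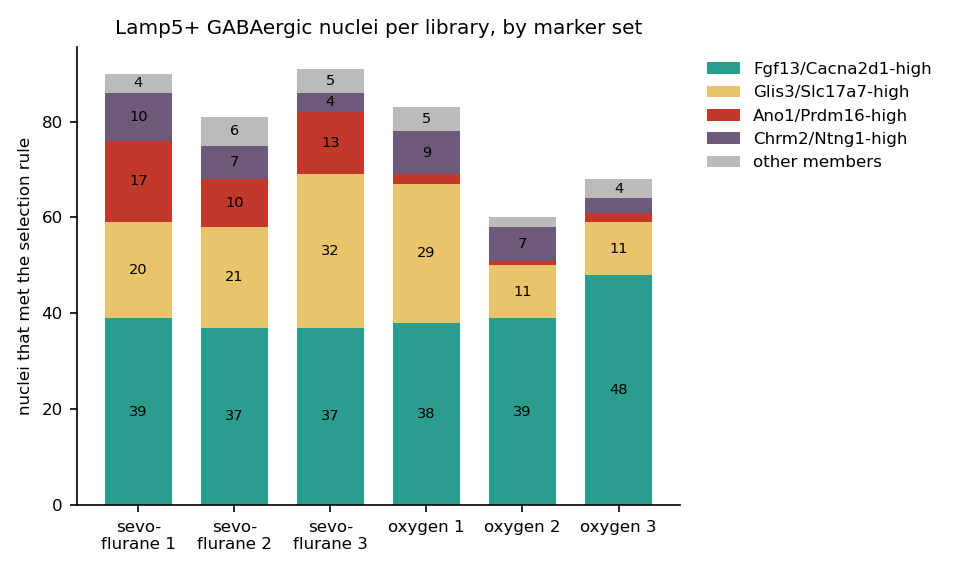
Number of Lamp5+ GABAergic nuclei in each of the 6 libraries (bars, vertical axis in nuclei), divided by marker set (colours). The Ano1/Prdm16-high nuclei number 17, 10 and 13 after sevoflurane and 2, 1 and 2 with oxygen.

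The sets were unequally spread over the libraries. The Ano1/Prdm16-high nuclei numbered 17, 10 and 13 in the sevoflurane libraries, against 2, 1 and 2 in the oxygen libraries, as the plot of nuclei by marker set shows. They held 20.3%, 29.4% and 22.9% of the UMIs of all Lamp5+ GABAergic nuclei after sevoflurane, against 2.67%, 8.79% and 4.0% with oxygen. The Fgf13/Cacna2d1-high nuclei numbered 39, 37 and 37 after sevoflurane and 38, 39 and 48 with oxygen. They held 28.2%, 25.9% and 24.2% of the UMIs after sevoflurane, against 26.8%, 49.6% and 48.5% with oxygen. The Glis3/Slc17a7-high nuclei numbered 20, 21 and 32 against 29, 11 and 11, and the Chrm2/Ntng1-high nuclei 10, 7 and 4 against 9, 7 and 3. For many of the genes and lists below, the log2 fold change of summed counts over the Fgf13/Cacna2d1-high nuclei alone is therefore given as well, as a description.

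The genes that the rule used stood as follows, with no test since they chose the nuclei. Over the pooled libraries, Lamp5 had 99.7 CPM in the Lamp5+ GABAergic nuclei, against 5.80 in the other GABAergic nuclei and 10.2 in all remaining nuclei. Gad2, which encodes the GABA-synthesising enzyme of nerve terminals, had 348 CPM, against 352 in the other GABAergic nuclei and 22.8 in the remaining nuclei. Gad1, the other GABA-synthesising enzyme, had 284 CPM, against 338 and 39.7. Reln had 609 CPM, against 433 and 54.6. Ndnf, a secreted protein gene, had 55.8 CPM, against 31.2 and 9.16. Adarb2, an RNA-editing enzyme relative and a marker of caudally derived interneurons, had 2674 CPM, against 3721 and 564. Within the Fgf13/Cacna2d1-high nuclei the levels were 171 CPM for Lamp5, 709 for Gad2, 538 for Gad1, 1569 for Reln and 126 for Ndnf, all above the value over all 473 nuclei, while Adarb2 stood at 2184 CPM.

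Genes that the rule did not use were ranked by their ratio to the other GABAergic nuclei, as a description. Over all 473 nuclei the genes with the highest ratio to the other GABAergic nuclei, after Lamp5, were Glis3 (4.82-fold, with 5 CPM added to both sides), Maml2 (4.45-fold), Itga8 (3.68-fold) and Sema5a (3.63-fold). The first 2 of these are among the genes that define the Glis3/Slc17a7-high set. The other GABAergic nuclei were limited to 1 UMI of Slc17a7 and the 473 were not. The part of this unequal limit in the ranking was not tested. Over the Fgf13/Cacna2d1-high nuclei the order after Lamp5 (16.3-fold) was Sv2c (6.23-fold), a synaptic vesicle protein, Cacna2d1 (6.18-fold), an auxiliary subunit of voltage-gated calcium channels, and Hapln1 (6.12-fold), a link protein of the extracellular matrix. These were followed by Vcan (5.72-fold), the matrix proteoglycan versican, Hcrtr2 (5.60-fold), an orexin receptor, and Egfr (5.43-fold), a growth factor receptor. Each of these genes was higher than in the other GABAergic nuclei in 6 of 6 libraries, but the same libraries gave the ranking. Sv2c and Cacna2d1 had also defined the set, and Hapln1, Vcan, Hcrtr2 and Egfr had not.

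The rule's limits cut through continuous counts. Of the nuclei that met every other condition, 1822 had 0 UMIs of Lamp5 while 302 had 1, and 142 had 2 UMIs of Gad1 and Gad2 while 65 had 3. Of Pvalb, 34 nuclei had 1 UMI and 473 had 0. Of Sst, 7 had 3 UMIs and 25 had 2, and of Vip, 6 had 2 UMIs and 19 had 1. Of Reln, Ndnf and Adarb2, 55 nuclei had 0 UMIs and 45 had 1.

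Within the 238 Fgf13/Cacna2d1-high nuclei some genes of the 2 origins were detected largely apart, and others were not. Of the 73 nuclei with a UMI of Ndnf, 61 (83.6%) also had Kit, the stem cell factor receptor, and 8 (11.0%) had Lhx6, while among those without Ndnf the shares were 20.6% and 48.5%. Of the 95 with Kit, 92 (96.8%) had Adarb2 and 5 (5.26%) had Lhx6. Of the 88 with Lhx6, 65 (73.9%) had Nos1, against 47.3% of those without Lhx6. The separation did not extend to every gene: of the nuclei with Lhx6, 64.8% had Adarb2 and 79.5% had Reln, against 84.7% and 83.3% of those without Lhx6. Of the nuclei with Ndnf, 45.2% had Nos1, against 62.4% of those without Ndnf. By these 4 genes, 57 nuclei (23.9%) had Kit or Ndnf and neither Lhx6 nor Nos1, 109 (45.8%) had Lhx6 or Nos1 and neither Kit nor Ndnf, 50 (21.0%) had genes of both pairs and 22 (9.24%) of neither. Each share rests on UMIs in nuclei with a median of 9137.5 UMIs, so a gene at 0 may be present below the depth.

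The 2 subsets differed in further genes, given as a description since the subsets were drawn after the values had been seen. The 57 nuclei with Kit or Ndnf alone had a median of 26 UMIs of Reln and 36 of Adarb2, at a median depth of 7881 UMIs. The 109 with Lhx6 or Nos1 alone had a median of 4 UMIs of Reln and 1 of Adarb2, at a median depth of 9998 UMIs. Reln was still detected in 78.9% of these 109 nuclei. Cnr1, the cannabinoid receptor gene, was detected in 71.9% of the Kit or Ndnf nuclei and 30.3% of the Lhx6 or Nos1 nuclei, and Cplx3, a complexin of the release machinery, in 26.3% and 4.59%. In the opposite direction, Id2, an inhibitor of basic helix-loop-helix factors, was detected in 8.77% of the Kit or Ndnf nuclei and 45% of the Lhx6 or Nos1 nuclei, and Eya4, a transcriptional coactivator, in 5.26% and 47.7%. Nkx2-1, a transcription factor of the medial ganglionic eminence, was detected in 0 of the 57, which allows up to 5.26%, and in 11.0% of the 109. Per library, the Kit or Ndnf nuclei numbered 7, 8 and 8 after sevoflurane and 12, 8 and 14 with oxygen, and the Lhx6 or Nos1 nuclei 23, 17 and 19 against 13, 18 and 19.

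No change in the number of Lamp5+ GABAergic nuclei passed a test. They made up 0.924 ± 0.0578% of all nuclei after sevoflurane and 0.856 ± 0.191% with oxygen (SD, n = 3 libraries each, two-sided exact permutation p = 0.7). Of the GABAergic nuclei they made up 14.7 ± 0.665% and 15.9 ± 2.44% (exact permutation p = 0.6). With 3 libraries a side, the smallest p this test can give is 0.10. Per library the share of GABAergic nuclei was 15.5% (95% Wilson interval 12.8% to 18.7%), 14.2% (11.6% to 17.3%) and 14.5% (12% to 17.5%) after sevoflurane, against 18.7% (15.4% to 22.6%), 14.4% (11.4% to 18.1%) and 14.6% (11.7% to 18.1%) with oxygen. Oxygen replicate 1 stood above the others and the groups overlapped. Without oxygen replicate 1 the difference in the share of GABAergic nuclei was 0.238 percentage points in the other direction, and without oxygen replicate 2 the difference in the share of all nuclei was -0.0279. When every nucleus was thinned to 3000 UMIs before the rule was applied, the share of GABAergic nuclei was 6.78 ± 0.680% after sevoflurane and 10.0 ± 1.96% with oxygen, with no overlap and the smallest possible exact permutation p of 0.1. Nuclei with at least 2 UMIs of Lamp5 made up 4.85 ± 0.360% of GABAergic nuclei after sevoflurane and 6.42 ± 0.900% with oxygen. These groups did not overlap either, at the same exact permutation p of 0.1. The Fgf13/Cacna2d1-high nuclei made up 6.37 ± 0.414% of GABAergic nuclei after sevoflurane and 9.42 ± 0.862% with oxygen, given with no test since the set was drawn after the values were seen.

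The share of nuclei with a UMI was taken for 11 subtype genes, of which Reln, Ndnf and Adarb2 are given with no test, since the rule asks for a UMI of one of them. Reln was detected in 56.7%, 50.6% and 64.8% of the Lamp5+ GABAergic nuclei after sevoflurane, against 65.1%, 68.3% and 77.9% with oxygen. Every sevoflurane library lay below every oxygen library, although sevoflurane replicate 3 and oxygen replicate 1 nearly met. The means were 57.4 ± 7.14% and 70.4 ± 6.70% (SD, n = 3). After thinning to 3000 UMIs, which left out 2 sevoflurane and 1 oxygen nuclei, they were 41.1 ± 1.11% and 55.0 ± 10.6%, again without overlap. In the Chrm2/Ntng1-high nuclei, where Reln was detected least often, the share over all libraries was 15.0% at a median depth of 15969 UMIs. In the other GABAergic nuclei the share was 37.3 ± 2.27% after sevoflurane and 43.7 ± 1.99% with oxygen, at median depths of 8267 to 10095 and 8819 to 9762.5 UMIs.

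For the remaining subtype genes, Fos aside, the differences were smaller or less orderly. None of the 8 genes tested, Fos among them, had a two-sided exact permutation p under 0.4 after Benjamini-Hochberg adjustment over the 8. Lhx6 was detected in 20.2 ± 1.74% of the nuclei after sevoflurane and 29.3 ± 6.85% with oxygen, without overlap, but the thinned shares of 10.6 ± 2.94% and 12.7 ± 4.03% overlapped. Kit was detected in 24.4 ± 7.09% and 35.3 ± 5.21% (exact permutation p = 0.2), and its groups overlapped. For Ndnf the shares were 24.1 ± 2.69% after sevoflurane and 26.4 ± 7.01% with oxygen, for Adarb2 79.4 ± 7.89% and 75.5 ± 2.26%, for Nos1 48.5 ± 8.06% and 43.4 ± 2.98%, and for Sv2c 57.0 ± 8.0% and 51.1 ± 2.30%. The shares of Npy, the neuropeptide Y gene, were 23.9 ± 3.66% and 23.7 ± 4.83%, of Id2 21.7 ± 1.73% and 27.6 ± 11.6%, and of Cck, the cholecystokinin gene, 59.6 ± 1.99% and 56.3 ± 5.10%. Fos, an activity-induced transcription factor and a gene chosen after its values had been seen, was detected in 6 of 90, 5 of 81 and 6 of 91 nuclei after sevoflurane, against 2 of 83, 0 of 60 and 0 of 68 with oxygen. A count of 0 allows a share of up to 5.0% in the second oxygen library and 4.41% in the third. The Fos shares of the groups did not overlap, nor did they after thinning (1.57 ± 0.802% after sevoflurane and 0% with oxygen). Since Fos was picked from its values, its place among the 8 tests gives no independent evidence. In the other GABAergic nuclei Fos was detected in 5.67 ± 0.155% after sevoflurane and 2.85 ± 0.638% with oxygen.

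**Figure D2:**
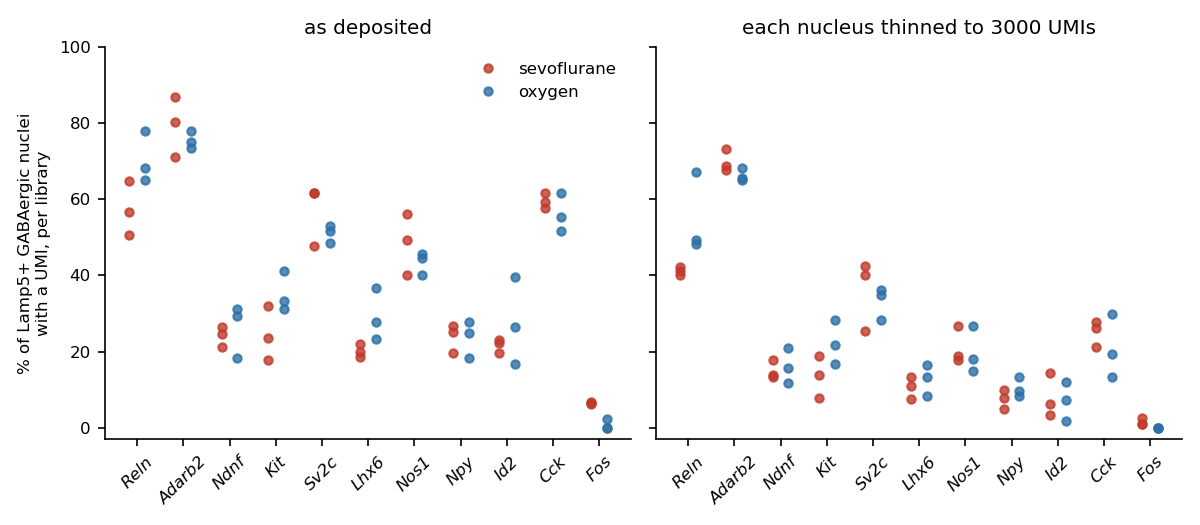
Share of Lamp5+ GABAergic nuclei with at least 1 UMI of 11 genes (vertical axis, percent), 1 point per library, as deposited (left) and after each nucleus was thinned to 3000 UMIs (right); sevoflurane points stand left of oxygen points. For Reln the 3 sevoflurane points, 50.6% to 64.8%, lie below the 3 oxygen points, 65.1% to 77.9%, and they stay below after thinning.

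Summed counts per library were then compared by edgeR's quasi-likelihood test with Benjamini-Hochberg adjustment over all genes tested, with calls made below an adjusted p of 0.05. Of 10428 genes, 118 (1.13%) were called in the Lamp5+ GABAergic nuclei, 13 higher (0.125%) and 105 lower (1.01%) after sevoflurane. In all 118 the 3 sevoflurane libraries did not overlap the 3 oxygen libraries, which held for 17.5% of all genes tested. At an unadjusted p under 0.05 stood 1168 genes. The count rested most on oxygen replicate 3: without it 10 genes were called, without sevoflurane replicate 2 it was 47, without sevoflurane replicate 3 it was 59, and without oxygen replicate 1 it was 227. Without sevoflurane replicate 1, the library with the female pattern, 108 were called, and without the Ano1/Prdm16-high nuclei 29. Scaled by library size alone, with the median of all genes at 0.14 on the log2 scale instead of 0.02, the split was 23 higher and 49 lower. The part of the unequal marker sets in these calls was not tested. The 118 include Reln and Gad2, which the rule uses and which are described below with no test. The median log2 fold change (sevoflurane over oxygen) of the 105 lower genes was -0.88 in all Lamp5+ GABAergic nuclei. In the Fgf13/Cacna2d1-high nuclei alone, where 103 of the 105 were tested, it was -0.54, beside 0.01 over all genes there.

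Reln had lower levels after sevoflurane, given as a description since the rule uses it. It had 340, 389 and 387 CPM in the sevoflurane libraries, against 722, 1273 and 1065 CPM in the oxygen libraries. The sevoflurane libraries were close to each other and all lay below the lowest oxygen library. Its log2 fold change was -1.45 (SE 0.18). Over the Fgf13/Cacna2d1-high nuclei alone it averaged 1219 ± 213 CPM after sevoflurane and 2145 ± 223 CPM with oxygen (SD, n = 3), a log2 fold change of -0.81. Reln (ENSMUSG00000042453) lies on the minus strand of chromosome 5, 21884454 to 22344702 in mm10. The rule asks for a UMI of Reln, Ndnf or Adarb2 in both groups alike.

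The other genes of the rule were less different, and they too are given with no test. Gad2 had 332, 260 and 263 CPM after sevoflurane against 383, 546 and 485 CPM with oxygen, a log2 fold change of -0.72 (SE 0.16). Restricted to the Fgf13/Cacna2d1-high nuclei, it stood at -0.41. The log2 fold changes of Gad1, Lamp5, Ndnf and Adarb2 were -0.43, -0.36, -0.54 and -0.58 over all Lamp5+ GABAergic nuclei. The same 4 values in the Fgf13/Cacna2d1-high nuclei were -0.06, -0.13, -0.22 and -0.51.

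Of 10 tested markers of Lamp5 and neurogliaform interneurons that the rule did not use, 2 fell (20%, beside 1.01% of all genes tested) and 0 rose. Their median was -0.44 beside 0.02 over all genes. The 2 were Cacna2d1 and Fgf13, which also define a marker set and were chosen after their values were seen. The 20% is therefore not independent evidence, and the 8 other markers were not called. The median of the 9 markers tested in the Fgf13/Cacna2d1-high nuclei was -0.02. Cacna2d1 had 867, 860 and 846 CPM after sevoflurane against 1578, 1728 and 1598 CPM with oxygen, a log2 fold change of -0.93 (SE 0.12, adjusted p = 0.00229). The libraries of each group lay close together and far from the other group, and it stayed called without any 1 library. In the Fgf13/Cacna2d1-high nuclei, which its own UMIs helped to define, it stood at -0.69. Fgf13, an intracellular growth factor homologue that binds sodium channels, fell by 1.00 (SE 0.17, adjusted p = 0.00986). Its call was lost without sevoflurane replicate 2 (adjusted p = 0.0583), sevoflurane replicate 3 (0.0522) or oxygen replicate 3 (0.0834), and in the Fgf13/Cacna2d1-high nuclei it stood at -0.49. Kit was -1.23 (adjusted p = 0.227), Npy -0.30 (0.774), Id2 -0.45 (0.596), Sv2c -0.36 (0.462) and Nos1 0.32 (0.583). These 5 stood at -0.69, 0.19, 0.11, -0.04 and 0.87 in the Fgf13/Cacna2d1-high nuclei. Among 4 transcription factors of the medial ganglionic eminence, Sox6 fell, with 12.2, 21.1 and 24.3 CPM after sevoflurane against 66.2, 83.9 and 72.7 CPM with oxygen (-1.89, SE 0.23, adjusted p = 0.0018), and it stayed called without any 1 library. Within the Fgf13/Cacna2d1-high nuclei the Sox6 libraries overlapped, at 43.8 ± 26.6 CPM and 49.0 ± 18.9 CPM, with a log2 fold change of -0.11. The 4 medial genes had a median of -0.61, with 3 negative and 1 positive. In the Fgf13/Cacna2d1-high nuclei the list went the other way. Its 6 genes summed there to 664 to 830 CPM after sevoflurane and 415 to 529 CPM with oxygen. Most of that sum was Maf, with 458 CPM over all libraries. None of the 4 tested genes of the caudal ganglionic eminence was called, and their median was -0.20.

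**Figure D3:**
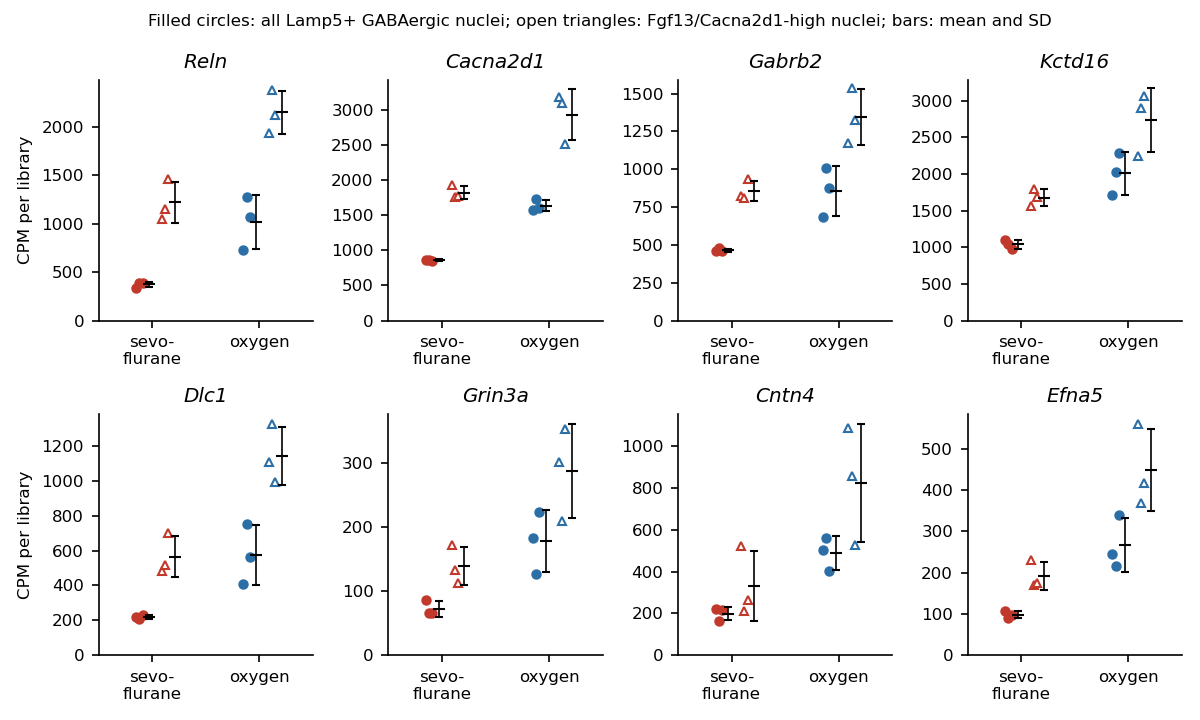
Level of 8 genes (vertical axes, CPM) in the 3 sevoflurane libraries (red) and the 3 oxygen libraries (blue), over all Lamp5+ GABAergic nuclei (filled circles) and over the Fgf13/Cacna2d1-high nuclei alone (open triangles), with mean and SD. Reln is shown as a description, since the rule uses it. In all 8 genes the sevoflurane circles lie below the oxygen circles, and the triangles, at higher levels, do likewise. The groups did not overlap in 17.5% of all genes tested over all Lamp5+ GABAergic nuclei and in 14.9% over the Fgf13/Cacna2d1-high nuclei.

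In each list of inhibitory signalling 1 gene at most fell, and none rose, beside 1.01% of all genes tested that fell. Of 16 GABA-A receptor and anchoring genes, Gabrb2, the beta2 subunit of the receptor that volatile anaesthetics act on, was the one called. It had 460, 476 and 459 CPM after sevoflurane against 683, 1010 and 874 CPM with oxygen (-0.88, SE 0.15, adjusted p = 0.00942), and the median of the 16 was -0.03, against -0.01 for the 15 tested in the Fgf13/Cacna2d1-high nuclei. Of 8 GABA-B signalling genes, Kctd16, an auxiliary subunit of the GABA-B receptor, was the one called. It had 1100, 1048 and 976 CPM after sevoflurane against 1706, 2028 and 2285 CPM with oxygen (-0.95, SE 0.14, adjusted p = 0.00463), with a median of -0.11 for the 8 and of -0.21 for the 6 tested in the Fgf13/Cacna2d1-high nuclei. Gabrb2 stood at -0.65 and Kctd16 at -0.71 in the Fgf13/Cacna2d1-high nuclei. Neither overlapped between groups, which held for 941 of the 6307 genes tested there (14.9%). Both lost their call without oxygen replicate 3 (adjusted p = 0.0906 for Gabrb2 and 0.0735 for Kctd16), and Gabrb2 also without sevoflurane replicate 2 (0.0548) or 3 (0.0542). None of the 7 genes of GABA packing, uptake and breakdown was called. Of 8 nitric oxide and cyclic GMP genes, Pde5a, which breaks down cyclic GMP, fell (-1.14, SE 0.24, adjusted p = 0.0365), and its call was lost in 5 of the 6 fits that left out a library, at adjusted p of 0.0887 to 0.166. Pde5a stood at -1.08 in the Fgf13/Cacna2d1-high nuclei. Of 9 neuropeptide and receptor genes 0 were called, with a median of -0.20, and of 2 gap junction genes 0.

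In each list of receptor and channel genes, which set how these cells respond to input, 1 gene at most was called, beside 1.13% of all genes tested. Grin3a, an NMDA receptor subunit, had 85.6, 65.3 and 64.9 CPM after sevoflurane against 183, 127 and 224 CPM with oxygen (-1.32, SE 0.19, adjusted p = 0.00576), and it was the 1 called among 16 ionotropic glutamate receptor genes (median -0.06). Each sevoflurane library lay below each oxygen library, most widely so against oxygen replicate 3. Kcnh7, a voltage-gated potassium channel gene, fell by 0.91 (SE 0.18, adjusted p = 0.0265) among 19 with a median of -0.18. Chrna7, the alpha7 nicotinic acetylcholine receptor, fell by 0.63 (SE 0.13, adjusted p = 0.0296) among 10 cholinergic and monoamine receptor genes with a median of -0.21. In the Fgf13/Cacna2d1-high nuclei Grin3a stood at -1.06, Kcnh7 at -0.57 and Chrna7 at -0.47. Each was without overlap, as were 14.9% of all genes tested there. Scaled by raw totals, Chrna7 did overlap, with 179 CPM in sevoflurane replicate 2 and 174 CPM in oxygen replicate 1. Without oxygen replicate 3 the adjusted p was 0.0648 for Grin3a, 0.16 for Kcnh7 and 0.119 for Chrna7. Kcnh7 also lost its call without sevoflurane replicate 2 (adjusted p = 0.143) or 3 (0.134), and Chrna7 in every fit that left out a library (0.053 to 0.122). Of 20 sodium and calcium channel genes Cacna2d1 was the 1 called (median -0.08), and of 7 metabotropic glutamate receptor genes 0 were called, with Grm5 at -0.26 (adjusted p = 0.499).

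Of 29 vesicle release genes 2 fell (6.9%, beside 1.01% of all genes tested) and 0 rose, with a median of -0.23, or of -0.10 for the 27 tested in the Fgf13/Cacna2d1-high nuclei. Rab3c, a vesicle GTPase, had 301, 282 and 227 CPM after sevoflurane against 391, 501 and 518 CPM with oxygen (-0.80, SE 0.15, adjusted p = 0.0187). Rims1, a scaffold of the active zone, had 1486, 1663 and 1696 CPM after sevoflurane against 2216, 2724 and 2425 CPM with oxygen (-0.60, SE 0.13, adjusted p = 0.0449). In both, the highest sevoflurane library stayed below the lowest oxygen library. Of 20 synaptic adhesion genes 4 fell (20%, beside the same 1.01%) and 0 rose, with a median of -0.36, and the 17 tested in the Fgf13/Cacna2d1-high nuclei also had a median of -0.36. The contactin gene Cntn4 had 219, 162 and 215 CPM after sevoflurane against 505, 559 and 402 CPM with oxygen (-1.30, SE 0.16, adjusted p = 0.0018) and stayed called without any 1 library. Cntn5, another contactin, fell by 0.79 (SE 0.13, adjusted p = 0.00867), Cntnap4, a neurexin relative of interneuron terminals, by 1.26 (SE 0.20, adjusted p = 0.00942), and Lrrtm3, a postsynaptic neurexin ligand, by 0.70 (SE 0.14, adjusted p = 0.0251). In the Fgf13/Cacna2d1-high nuclei the 4 adhesion genes stood at -1.32, -0.50, -0.70 and -0.57, and Rab3c and Rims1 at -0.41 and -0.55. Without oxygen replicate 3 the calls of Rab3c (adjusted p = 0.161), Rims1 (0.187), Cntn5 (0.0834), Cntnap4 (0.0834) and Lrrtm3 (0.165) were lost, and so were those of all 5 without sevoflurane replicate 2 (0.0583 to 0.179). Rab3c, Rims1 and Lrrtm3 also lost theirs without sevoflurane replicate 3 (0.0542 to 0.146), Rims1 and Lrrtm3 without sevoflurane replicate 1 (0.145 and 0.0619), and Rims1 without oxygen replicate 2 (0.0934). Of 5 neuregulin and ErbB genes, the receptor genes Erbb4 (-0.95, SE 0.17, adjusted p = 0.0119) and Egfr (-1.38, SE 0.18, adjusted p = 0.00301) fell (40%, beside 1.01% of all genes), and the median was -0.54, or -0.18 in the Fgf13/Cacna2d1-high nuclei. Erbb4 stood at -0.28 and Egfr at -0.81 in the Fgf13/Cacna2d1-high nuclei, and without oxygen replicate 3 their adjusted p was 0.0834 and 0.0505. Erbb4 also lost its call without sevoflurane replicate 2 (0.0753) or 3 (0.0603). The 1.01% is over genes of every length, and long genes fell more often. Of 531 tested genes that span 300 kb or more with introns, 49 fell, and the median of the 531 was -0.19. With the correction for span given below, Rab3c, Rims1, Cntn5 and Erbb4 were not called. The part of gene span in the shares of these lists was not tested.

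The widest falls lay partly outside these lists. Besides Sox6 and Egfr, the widest falls included Tll1 (-1.84), Utrn (-1.72), Dock5 (-1.70), Zfp951 (-1.60), Gpc6 (-1.49), Nxph1 (-1.46), Efna5 (-1.45) and Dlc1 (-1.38), at adjusted p from 0.0018 to 0.0449. Efna5, the guidance ligand ephrin-A5, had 107, 89.3 and 96.8 CPM after sevoflurane against 245, 215 and 340 CPM with oxygen. The groups were far apart, the call held without any 1 library, and in the Fgf13/Cacna2d1-high nuclei the log2 fold change was -1.23. Nxph1, which encodes neurexophilin 1, a secreted neurexin ligand of interneurons, had 1254, 807 and 717 CPM after sevoflurane against 1898, 3424 and 2318 CPM with oxygen, and stood at -0.99 in the Fgf13/Cacna2d1-high nuclei. Gpc6, a glypican, stood at -1.91 there, Zfp951 at -1.74, Utrn, the dystrophin relative utrophin, at -1.20, Dlc1, a GTPase-activating protein gene, at -1.01, and Tll1, a metalloprotease, at -0.85. The 8 excitatory neuron markers, all detected, summed to 956 to 1224 CPM after sevoflurane and 560 to 1046 CPM with oxygen, and their part in these falls was not tested. Without oxygen replicate 3 the calls of Tll1, Utrn, Dock5, Zfp951, Gpc6, Nxph1 and Dlc1 were lost, at adjusted p of 0.0505 to 0.194. Those of Tll1, Utrn, Dock5 and Nxph1 were also lost without sevoflurane replicate 2 (0.0539 to 0.184), of Tll1, Dock5, Zfp951 and Nxph1 without sevoflurane replicate 3 (0.0603 to 0.182), and of Gpc6 and Zfp951 without sevoflurane replicate 1 (0.0799 and 0.055). Dock5 (0.0673) and Zfp951 (0.0635) lost theirs without oxygen replicate 1 too, and Dock5 without oxygen replicate 2 (0.0982). Outside the widest falls, Plxdc2, a transmembrane protein gene, fell (-1.16, SE 0.14, adjusted p = 0.0018; -0.92 in the Fgf13/Cacna2d1-high nuclei) and stayed called without any 1 library.

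**Figure D4:**
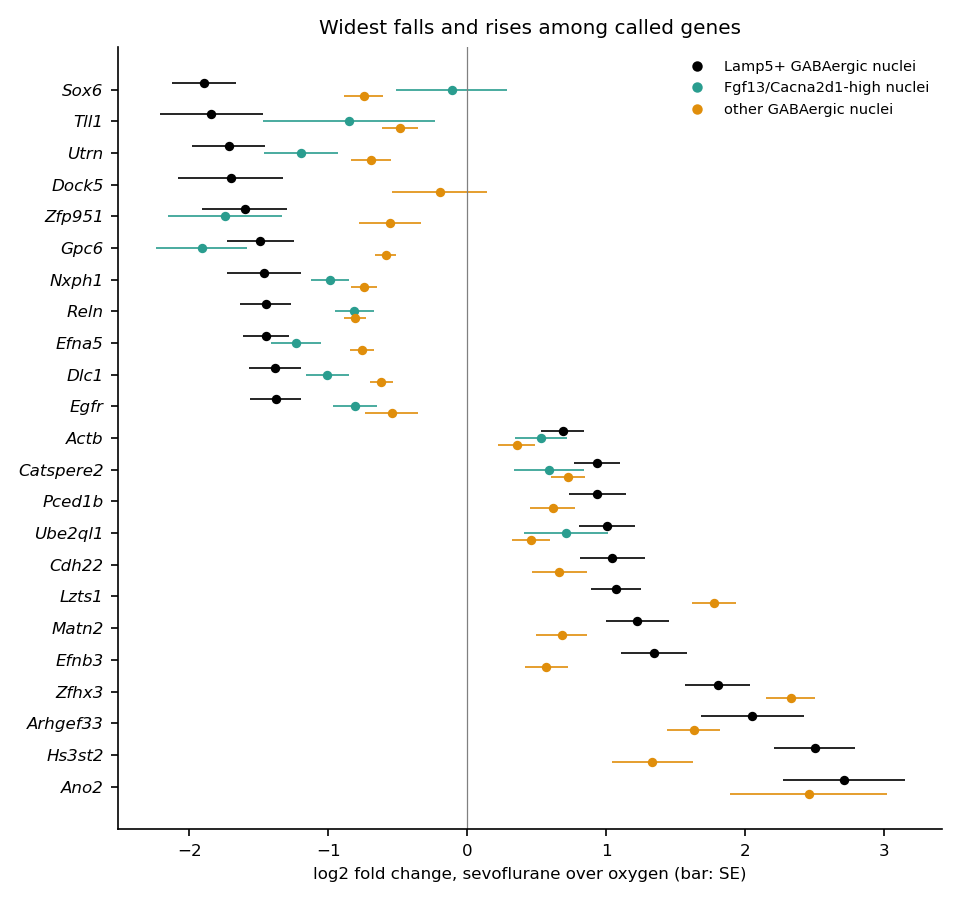
Log2 fold change of sevoflurane over oxygen (horizontal axis, bars are SE) of the named falls and rises in the Lamp5+ GABAergic nuclei (black), in the Fgf13/Cacna2d1-high nuclei alone (green, where tested) and in the other GABAergic nuclei (orange). Reln, which the rule uses, is shown as a description. Sox6 stands at -1.89 over all Lamp5+ GABAergic nuclei and at -0.11 in the Fgf13/Cacna2d1-high nuclei.

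Of the 13 genes that rose, 12 carried a gene name, and most had too few UMIs in the Fgf13/Cacna2d1-high nuclei to be tested there. Ano2, a calcium-activated chloride channel, had 121, 79.9 and 48.7 CPM after sevoflurane against 18.2, 6.77 and 9.09 CPM with oxygen (2.71, SE 0.44, adjusted p = 0.0249). Ano2 is 1 of the genes that define the Ano1/Prdm16-high set, where it had 283 CPM over all libraries against 0.866 CPM in the Fgf13/Cacna2d1-high nuclei. Zfhx3, a homeobox transcription factor, had 124, 109 and 72.5 CPM after sevoflurane against 32.7, 31.1 and 21.6 CPM with oxygen (1.80, SE 0.24, adjusted p = 0.00229), and its log2 fold change was -0.053 once the Ano1/Prdm16-high nuclei were left out. Hs3st2, a sulfotransferase that modifies heparan sulfate, had 59.4, 49.4 and 37.7 CPM after sevoflurane against 6.54, 10.8 and 9.09 CPM with oxygen. The groups were far apart (2.50, SE 0.29, adjusted p = 0.0018), and the call held without any 1 library, but too few UMIs were left to test it without the Ano1/Prdm16-high nuclei. Arhgef33, a guanine nucleotide exchange factor gene, had 16.6, 19.6 and 25.5 CPM after sevoflurane against 6.54, 2.71 and 4.55 CPM with oxygen (2.05, SE 0.37, adjusted p = 0.0142), and without the Ano1/Prdm16-high nuclei it stood at 2.02 (adjusted p = 0.0447). The remaining rises were Efnb3 (1.35), Matn2 (1.23), Lzts1 (1.07), Cdh22 (1.05), Ube2ql1 (1.01), Pced1b (0.94), Catspere2 (0.93) and Actb (0.69), which encodes beta-actin. Without the Ano1/Prdm16-high nuclei these 8 stood at 1.07, 0.70, 0.56, 1.06, 1.04, 0.54, 0.79 and 0.54, and none was called. Ube2ql1 stood at 0.71, Catspere2 at 0.59 and Actb at 0.53 in the Fgf13/Cacna2d1-high nuclei. Without oxygen replicate 3 the calls of all named rises but Hs3st2 were lost, at adjusted p of 0.0505 to 0.213. Without sevoflurane replicate 2 those of Ano2, Efnb3, Cdh22, Ube2ql1, Pced1b, Catspere2 and Actb were lost (0.0635 to 0.224), without sevoflurane replicate 3 those of Arhgef33, Lzts1, Cdh22, Ube2ql1, Pced1b and Actb (0.0542 to 0.18), and without oxygen replicate 2 those of Ano2, Cdh22, Ube2ql1, Pced1b and Actb (0.0598 to 0.12). Cdh22 (0.088) and Pced1b (0.0668) lost theirs without oxygen replicate 1, and Ube2ql1 (0.0706) without sevoflurane replicate 1.

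Several lists had no called gene in the Lamp5+ GABAergic nuclei, beside 1.13% of all genes tested. Of 11 tested immediate early genes 0 passed, although their median was 0.60 and 10 of them were positive. Jun, one of them, had 33.2, 71.2 and 38.8 CPM after sevoflurane against 42.2, 10.8 and 28.4 CPM with oxygen, and the groups overlapped (0.71, adjusted p = 0.594). Of 10 glucocorticoid-induced genes 0 passed, with a median of 0.23, and Zbtb16 stood at -0.46 (adjusted p = 0.273), or at -0.32 in the Fgf13/Cacna2d1-high nuclei. Of 18 clock genes 0 passed (median 0.11), of 16 chaperone genes 0 (median 0.03), and of 20 respiratory chain genes 0 (median 0.20), with Cox6c at 0.39 (adjusted p = 0.335). Of 15 cholesterol synthesis genes 0 passed, with a median of 0.19 and 12 of them positive. The 21 genes of that list summed to 333 to 394 CPM after sevoflurane and 269 to 292 CPM with oxygen. Cyp51, the sterol demethylase, had 34.9, 28.3 and 33.6 CPM after sevoflurane against 17.4, 23.0 and 18.2 CPM with oxygen (0.75, adjusted p = 0.184), and 1.36 in the Fgf13/Cacna2d1-high nuclei. Of 13 genes of methylthioadenosine, methionine and polyamine metabolism 0 passed, with a median of 0.06, and Mat2a, which makes S-adenosylmethionine, stood at -0.13 (adjusted p = 0.81). In the other GABAergic nuclei, where 4.84% of all genes were called, 4 of 23 immediate early and 4 of 12 glucocorticoid-induced genes were called. So were 3 of 21 cholesterol, 2 of 19 clock and 2 of 18 chaperone genes there, but 0 of 20 respiratory chain and 0 of 16 methylthioadenosine and polyamine genes. Of 13 tested genes that an earlier analysis of these libraries had picked as changed in many cell classes, Arhgef33 rose and Plxdc2 and Chst9 fell. Chst9, a sulfotransferase gene, stood at -1.12 (adjusted p = 0.0182) and lost its call without sevoflurane replicate 1 (0.0671), sevoflurane replicate 3 (0.0946) or oxygen replicate 3 (0.0834). Its log2 fold change in the Fgf13/Cacna2d1-high nuclei was -1.61. That list was chosen on these samples and is not independent evidence.

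Markers of other cell types were detected, some at high summed levels. The excitatory neuron markers summed to 956 to 1224 CPM after sevoflurane and 560 to 1046 CPM with oxygen, and the oligodendrocyte markers to 376 to 451 and 210 to 455 CPM. Of the lists of other cell types, the choroid and ependymal list alone did not overlap between groups. Ttr, the transthyretin gene of the choroid plexus, had 1.75, 1.45 and 1.74 CPM after sevoflurane against 89.4, 51.4 and 228 CPM with oxygen (-6.14, SE 0.94, adjusted p = 0.064), and did not pass the test. In the Fgf13/Cacna2d1-high nuclei it had 0, 3.02 and 0 CPM after sevoflurane against 135, 63.0 and 353 CPM with oxygen. The 8 choroid and ependymal markers, 7 of them detected and Folr1 at 0, summed to 10.6 to 29.2 CPM after sevoflurane and 55.9 to 237 CPM with oxygen. This was not particular to the Lamp5+ GABAergic nuclei. In the other GABAergic nuclei these markers summed to 14.5 to 22.5 CPM after sevoflurane and 58.2 to 341 CPM with oxygen. The 6 dentate granule markers, all detected, summed to 619 to 757 CPM after sevoflurane and 362 to 758 CPM with oxygen, and those of oligodendrocytes, astrocytes, microglia and vascular cells also overlapped between groups. Of 6 markers of Cajal-Retzius cells, which also make reelin, 4 were detected, and the transcription factor Lhx1 and its antisense gene Lhx1os were at 0 in all 6 libraries. The 6 summed to 30.7 to 56.4 CPM after sevoflurane and 11.7 to 31.1 CPM with oxygen, which overlapped. Most of the sum was Cacna2d2, a calcium channel subunit that GABAergic neurons also express, with 31.1 CPM over all libraries, while Trp73 had 2.18 CPM. The part of these transcripts in the changes above was not tested.

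In the other GABAergic nuclei of the same libraries 672 of 13898 genes (4.84%) were called, 251 higher (1.81%) and 421 lower (3.03%). Since both sets come from the same 6 libraries, their values are set side by side only. Reln, given with no test, stood at -1.45 in the Lamp5+ GABAergic nuclei and at -0.81 (SE 0.08) in the other GABAergic nuclei. Kctd16 stood at -0.95 and -0.74, Gabrb2 at -0.88 and -0.68, Cntnap4 at -1.26 and -0.89, and Egfr at -1.38 and -0.54 (adjusted p = 0.169 in the other GABAergic nuclei). The difference between the 2 responses was tested itself, with limma on the differences within each library. Of 10426 genes 0 passed at an adjusted p under 0.05, and 512 had an unadjusted p under 0.05. The smallest p belonged to Cntn4, with -1.30 in the Lamp5+ GABAergic nuclei and -0.28 in the other GABAergic nuclei (difference -1.01, SE 0.15, adjusted p = 0.0561). Cntn4 was followed by Pld5 (-0.61 and 0.76, difference -1.34, SE 0.19, adjusted p = 0.0564), Myo3b (-0.91 and 0.12, adjusted p = 0.145), Kcnn3, a calcium-activated potassium channel gene (0.70 and 2.04, adjusted p = 0.176), and Arpp21 (-0.52 and 0.24, adjusted p = 0.239). Leaving out oxygen replicate 2, 1 or 3 gave 8, 2 and 1 called differences, all more negative in the Lamp5+ GABAergic nuclei, and leaving out any sevoflurane library gave 0.

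The genes that fell were long. The span of a gene, from its start to its end in mm10 with introns, had a median of 267 kb among the 105 lower genes, 110 kb among the 13 higher genes and 33.9 kb among all genes tested. Over 100 kb lay 93 of the 105 (88.6%), 7 of the 13 (53.8%) and 20.1% of the genes tested. The median log2 fold change of all genes tested in the Lamp5+ GABAergic nuclei was 0.11 under 10 kb, 0.06 from 10 to 30 kb, 0.02 from 30 to 100 kb, -0.09 from 100 to 300 kb and -0.19 at 300 kb and over. The same 5 medians were 0.16, 0.06, 0.04, -0.07 and -0.21 in the Fgf13/Cacna2d1-high nuclei, and 0.09, 0.03, 0.00, -0.08 and -0.16 in the other GABAergic nuclei. With each library corrected for a smooth trend on span, 74 genes were called, 18 higher and 56 lower, and 65 of these were among the 118. Cacna2d1, Kctd16, Grin3a and Sox6 were still called with this correction, and Kcnh7, Rims1, Rab3c, Cntn5 and Erbb4 were not.

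**Figure D5:**
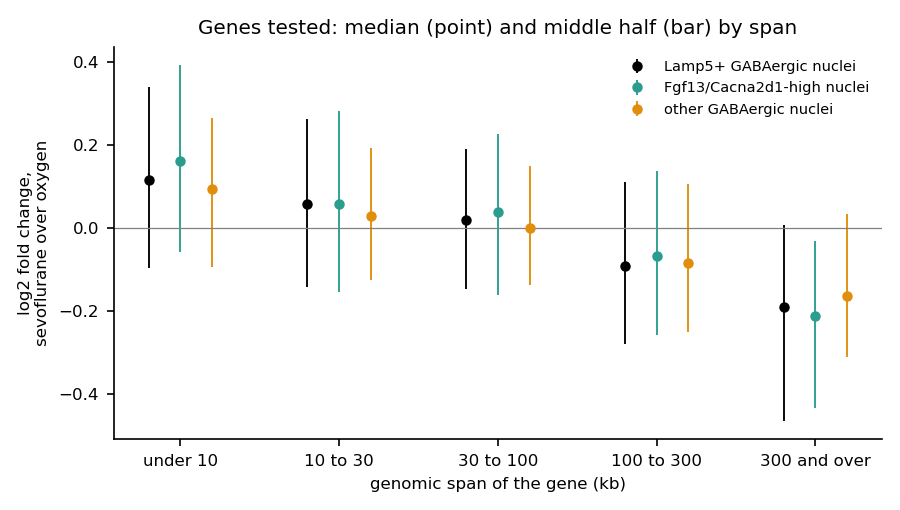
Median log2 fold change of sevoflurane over oxygen (points) and interquartile range (bars) by genomic span in kb (horizontal axis), for the Lamp5+ GABAergic nuclei (black), the Fgf13/Cacna2d1-high nuclei (green) and the other GABAergic nuclei (orange). The medians for the Lamp5+ GABAergic nuclei run from 0.11 for genes under 10 kb to -0.19 for genes of 300 kb and over.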

How the data were processed

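Single-nucleus libraries of transcript 3' ends were made from frozen hippocampi, per the labels' protocols, and reads went through fastp and Cell Ranger 7.1.0 with mm10, per the submitters' processing notes. The deposited matrices hold raw counts (UMIs per gene and barcode, 32285 genes, 53824 barcodes that the authors had selected before deposit). The sources used here do not say if intronic reads were counted. The total per library, 56334621 to 72636984 UMIs, limits precision, and Wilson intervals and floors of 3 counts cover counting error only.

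The members, 36 gene lists and marker sets were chosen with earlier results of these data known. Counts were summed per library over the nuclei, since nuclei are not replicates. They were tested with edgeR 4.0.16 in R 4.3.3 (quasi-likelihood, robust, TMM, filterByExpr, treatment as the only term), and differences of log2 CPM within libraries with limma 3.58.1 (trend, robust, prior count 2). Each edgeR SE is the size of the log2 fold change over the root of its F. CPM per gene and library, where tested, uses normalised library sizes, while pooled levels and list sums use raw totals. Shares were compared by two-sided exact permutation tests over 20 splits (SciPy 1.17.1). The fit was tested on simulated data. Doublets were scored with Scrublet (scanpy 1.11.5), marking per library the highest scores up to 0.8% per 1000 barcodes. Gene spans came from GENCODE by Ensembl ID (10425 of 10428 tested genes).

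Genes named were the 12 widest rises and falls among called genes that averaged 10 CPM or more in either group without overlap, called members of the lists or otherwise up to 3 of the highest level, the 5 smallest p of the difference, the rule's genes and the markers. Genes with only a predicted-gene number (8 of the 118 called) were counted and not named. A few results, among them 1 of the 12 widest falls, are not reported here. Fos, Hapln1, Vcan, Hcrtr2, Itga8, Sema5a and the genes that define the marker sets were chosen after their values were seen. Alternatives were other scalings, filters, member rules, doublet removal, a span correction, a replicate term and leaving out each library.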

Additional observations from a re-analysis of the deposited data

How the results depend on the processing

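The count of 118 called genes in the Lamp5+ GABAergic nuclei kept its lower-heavy split under every setting tried, but its size moved by more than 1.5 times with library size alone (72), genes with at least 1 count (423), the span correction (74), at least 2 UMIs of Lamp5 (2 of 6729 tested), and, as choices made after seeing the data, without the Ano1/Prdm16-high nuclei (29) and with the Fgf13/Cacna2d1-high nuclei alone (74 of 6307 tested). DESeq2 1.42.0 called 169, a filter at a mean of 10 CPM 116, at least 2000 UMIs per nucleus 118, the Scrublet-marked barcodes left out 139, Slc17a7 at most 1 UMI 148 and without the Glis3/Slc17a7-high nuclei 137, the last 2 also chosen after seeing the data. Leaving out 1 library gave 10 to 227 calls in these nuclei, 357 to 629 in the other GABAergic nuclei (672 with all) and 0 to 8 for the difference. The difference also had 2 calls under the 10 CPM filter and 29 when the Fgf13/Cacna2d1-high nuclei stood in for all (chosen after seeing the data), against 0. With library size alone the other GABAergic nuclei had 511 higher and 198 lower, against 251 and 421.

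The labels do not say that libraries with the same replicate number were paired. Deviations from the group means correlated at -0.142, -0.09 and 0.017 between same-numbered libraries. With 3 libraries a group, these values cannot decide if such libraries shared a batch. With a replicate block 29 genes were called, 6 higher and 23 lower, of which 23 were among the 118, 459 were called in the other GABAergic nuclei, and 0 for the difference.

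The difference in the share of all nuclei turned to -0.0402 with at least 2 UMIs of Lamp5, to -0.107 after thinning to 3000 UMIs and, over the fits that left out 1 library, ran from -0.0279 to 0.163. The difference in the share of GABAergic nuclei turned to 0.674 under a strict rule (Slc17a7 at 0 and at most 2 UMIs of glial, vascular and choroid markers) and ran from -1.92 to 0.238 over the same fits. That difference was -1.17 under the main rule, -1.57 with at least 2 UMIs of Lamp5 and -3.26 after thinning. Thinning turned the difference for Npy to -2.88 and for Id2 to 1.06 percentage points. Reversed log2 fold changes were Zfhx3 (-0.053 without the Ano1/Prdm16-high nuclei), Mat2a (0.16 with at least 2 UMIs of Lamp5), and Npy (0.19) and Id2 (0.11) in the Fgf13/Cacna2d1-high nuclei. The cause was not tested. Over the 43 called genes examined, 525 of 793 alternative values stayed called, 267 did not and 1 reversed. The strict rule left 17 nuclei, 0 in 2 oxygen libraries, and its gene test was not run.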
